A study of Mus musculus with 2 samples.

Results

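The rod phototransduction and outer segment genes described here are 9 genes, Gnat1, Gnb1, Gngt1, Pde6a, Pde6b, Pde6g, Cnga1, Cngb1 and Prph2, taken by symbol from the 47644 genes of the deposited table. No symbol repeated in the table, and all 9 genes were found. The samples were whole eyeballs of C57BL/6 mice, sequenced as 1 control library and 1 library from the model of oxygen-induced retinopathy (OIR). In the OIR group, pups entered a chamber of high oxygen at day 7, stayed there for 5 days and then lived in ordinary air until the eyes were collected at day 17. No genetic change is named in the labels, and the number of animals per library and the day on which the control eyes were taken are unstated in the sources used here. With 1 library per group no difference below has a replicate check and no p-value was computed. The series' stated question is what goes with lasting visual dysfunction in this model.

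In a rod, light activates the visual pigment of the disc membranes, which then activates the G protein transducin. The transducin alpha subunit draws the inhibitory gamma subunit away from the catalytic chains of the phosphodiesterase PDE6, PDE6 destroys cyclic GMP, and the cation channel of the outer segment, held open by cyclic GMP, closes. Peripherin 2, the product of Prph2, shapes the rims of the discs in which this machinery sits. Loss of several of these components is a known cause of retinal degeneration in mice and humans.

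In the OIR library the cascade did not stand apart as a block. The 9 genes together took 1.462% of the control reads (exact binomial 95% interval 1.456 to 1.468) and 1.445% of the OIR reads (1.440 to 1.451). The small transducin gamma gene Gngt1 and the small PDE6 gamma gene Pde6g stood lower in OIR, at 0.717 and 0.814 of their control read shares, and Pde6b, for the catalytic beta chain of PDE6, at 0.925 (0.906 to 0.944). Pde6a, for the catalytic alpha chain, and Cngb1, for the channel beta subunit, both with long transcripts, stood higher, at 1.19 and 1.23 of theirs. Gnat1, Gnb1, Prph2 and Cnga1 had between 0.977 and 1.06 of their control read shares, and the sign of these 4 differences changed with the scaling of the libraries.

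Reads assigned to genes numbered 15741235 in the control and 20378793 in OIR. All 10 rod marker genes, most of them members, were detected in both libraries, the lowest at 177 FPKM (fragments scaled by transcript length and library size). Their summed level was 8394 FPKM in the control and 8042 in OIR. Because these are eyeballs, other tissues share the reads. The 8 lens markers, of which Lim2 was at 0 in both libraries, took 10.6% of control reads and 7.53% of OIR reads, and 6 corneal epithelium markers took 0.0551% and 0.184%. Marker shares were also lower in OIR for ganglion cells (0.0576% in the control, 0.0391% in OIR), Mueller glia (0.333%, 0.245%), bipolar cells (0.118%, 0.101%) and cones (0.0761%, 0.0668%). They were higher for red cells (0.0266%, 0.0775%), pigment epithelium (0.0821%, 0.0885%) and muscle (0.0062%, 0.0080%). In such bulk samples fewer rods and less RNA per rod cannot be told apart. All intervals given are exact 95% intervals and cover counting error only, because reads lacking molecular identifiers can be copies of 1 molecule and because animals vary.

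Sequence upstream of the transcript start was on hand for 6 of the 9 genes (RefSeq, build GRCm38.p6), and not for Gnat1, Pde6a and Pde6g. The windows of the 4 genes below are shown because they lie outside every exon annotated in GENCODE M21, for Prph2 after its last bases were cut. Of the 250 bases of Prph2 the first 231 are printed. The 4 genes include Cngb1, the highest of the 9 differences, the rod genes Pde6b and Prph2 and, for contrast, the broadly expressed Gnb1. They run 5′ to 3′ on the strand of the gene. Capitals mark matches, on either strand, to TAATCC, a word bound by photoreceptor homeodomain factors such as Crx, to TGCTGA or TGANTCAGC, parts of the element bound by the rod factor Nrl, or to TATAAA, the core promoter word. These words were chosen with the sequences in view.
Cngb1, minus strand, chr8:95306586-95306835: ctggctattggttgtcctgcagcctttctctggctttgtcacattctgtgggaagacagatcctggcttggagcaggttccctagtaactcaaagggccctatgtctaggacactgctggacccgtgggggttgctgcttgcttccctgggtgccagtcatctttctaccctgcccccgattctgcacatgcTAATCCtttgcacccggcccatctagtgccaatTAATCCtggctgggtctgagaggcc
Pde6b, plus strand, chr5:108388123-108388372: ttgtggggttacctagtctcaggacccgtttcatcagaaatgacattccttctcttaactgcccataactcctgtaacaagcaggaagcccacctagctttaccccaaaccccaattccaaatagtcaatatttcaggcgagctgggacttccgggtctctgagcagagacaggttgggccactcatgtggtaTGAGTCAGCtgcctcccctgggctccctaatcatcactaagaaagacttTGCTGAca
Prph2, plus strand, chr17:46910228-46910458: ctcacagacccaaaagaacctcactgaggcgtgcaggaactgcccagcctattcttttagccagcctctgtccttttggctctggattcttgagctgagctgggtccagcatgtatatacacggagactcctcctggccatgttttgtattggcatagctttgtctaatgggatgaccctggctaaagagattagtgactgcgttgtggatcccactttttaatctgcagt
Gnb1, plus strand, chr4:155491111-155491360: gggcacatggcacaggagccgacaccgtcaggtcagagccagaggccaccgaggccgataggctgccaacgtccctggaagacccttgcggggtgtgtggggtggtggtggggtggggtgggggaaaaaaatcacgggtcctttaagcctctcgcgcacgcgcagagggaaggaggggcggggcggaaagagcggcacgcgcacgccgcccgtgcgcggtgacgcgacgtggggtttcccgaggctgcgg

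In the 250 bases before the start, Cngb1 held TAATCC at 58 and at 25 bases before the start, on the plus strand of the gene. TAATCC also stood 44 bases before the start of Gngt1, on the opposite strand, and 228 bases before that of Cnga1. Of 32851 promoter windows of this length in the table, 6.25% held that word. Thus Cngb1, the highest of the 9 differences, and Gngt1, the lowest, both carried it. Pde6b held TGANTCAGC at 57 and TGCTGA at 8 bases before its start, words found in 1.02% and 16.1% of all windows. Gngt1 held TATAAA on the opposite strand at 133 bases, as did 12.4% of windows somewhere in theirs. Prph2 and Gnb1 held none of the 4 words in their full 250 bases, of which 231 are printed for Prph2. The Gnb1 window was 69.2% G and C with 26 CpG pairs, against 38.4% to 55.6% and 3 or 4 pairs in the other 5 windows and medians of 52.4% and 6 over all windows. The windows of Gngt1 and Cnga1 are not printed because they overlap annotated exons further than that of Prph2, so their matches may lie in transcribed sequence. A match describes letters and shows no binding.

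Levels differed widely among the members. Below, a difference is that of log2(FPKM + 1), OIR minus control, and the 15883 genes that reached an FPKM of 1 in the control or in OIR are termed tested genes, without any statistical test. The read-share ratio is the gene's share of all reads assigned to genes in OIR divided by that in the control. By FPKM, Gnat1 was the 18th most abundant gene in the control library and the 16th in OIR. Gnb1 and Prph2 ranked 25th and 26th in both. The other 6 members ranked between 46th and 334th in the control. Gngt1 went from 215th in the control, above Pde6a, Cnga1 and Cngb1, to 303rd in OIR, below all of them. Cngb1 went from 334th to 264th.

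**Figure D1:**
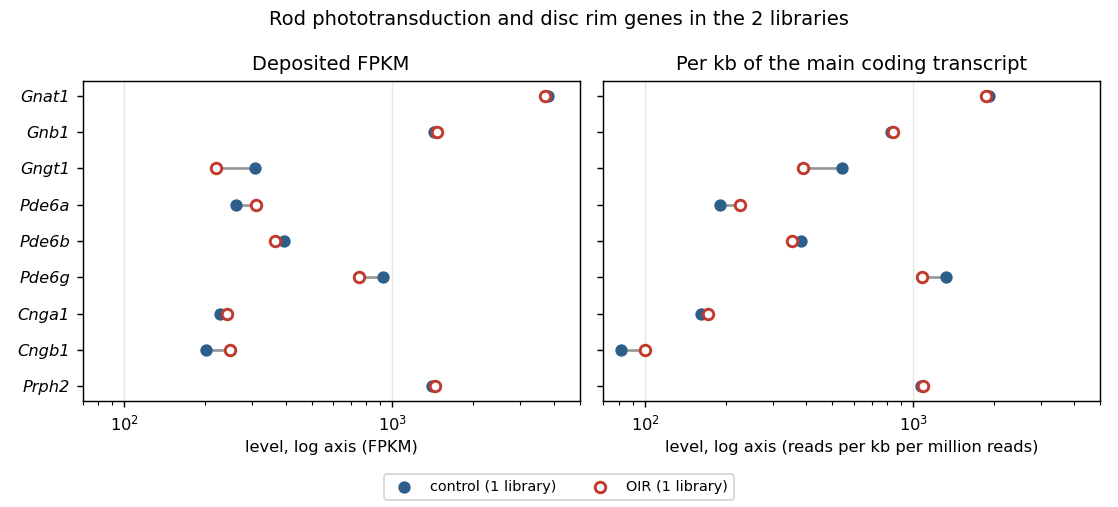
Level of each of the 9 genes in the control library (filled) and the OIR library (open), 1 library each, on log axes: left, deposited FPKM, right, reads per kilobase of the main coding transcript, scaled to library size. The points of Gnat1, Gnb1, Prph2 and Cnga1 nearly coincide, those of Gngt1 and Pde6g lie lower in OIR and those of Pde6a and Cngb1 higher, and the order of the genes changes between the panels.

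Transducin, the G protein of the rod, was represented by its 3 subunit genes. Gnat1 (ENSMUSG00000034837, chromosome 9, 107674474 to 107679712, minus strand), the alpha subunit that binds GTP, had 70109 reads in the control and 88705 in OIR, or 3810 and 3724 FPKM. Its read-share ratio was 0.977 (0.968 to 0.987) and its difference -0.03. Gnb1 (ENSMUSG00000029064, chromosome 4, 155491361 to 155559269, plus strand), a beta subunit used by rods and by many other cell types, had 40760 and 53799 reads, or 1437 and 1465 FPKM, a ratio of 1.02 (1.01 to 1.03) and a difference of 0.03. These 2 subunits were thus nearly level between the libraries. Gngt1 (ENSMUSG00000029663, chromosome 6, 3993792 to 3997436, plus strand), the gamma subunit that anchors transducin to the membrane, had 10092 reads in the control and 9362 in OIR, although the OIR library was deeper. It stood at 308 FPKM in the control and 221 in OIR, a ratio of 0.717 (0.697 to 0.737) and a difference of -0.48. This was the lowest of the 9 differences, and 4.34% of tested genes had a lower one.

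The rod PDE6 genes went different ways on the FPKM scale. Pde6a (ENSMUSG00000024575, chromosome 18, 61220482 to 61289924, plus strand), the catalytic alpha chain, had 13741 reads in the control and 21142 in OIR, or 261 and 310 FPKM, a ratio of 1.19 (1.16 to 1.21) and a difference of 0.25. Pde6b (ENSMUSG00000029491, chromosome 5, 108388391 to 108432397, plus strand), the catalytic beta chain, the window of which is printed above, had 16833 and 20163 reads, or 395 and 366 FPKM, a ratio of 0.925 (0.906 to 0.944) and a difference of -0.11. Pde6g (ENSMUSG00000025386, chromosome 11, 120447605 to 120453500, minus strand), the inhibitory gamma subunit, had 18787 and 19797 reads, or 922 and 751 FPKM. Its ratio was 0.814 (0.798 to 0.830) and its difference -0.30. The RNA of the alpha chain was therefore higher in OIR while the RNAs of the beta and gamma chains were lower. Against abundant genes of like transcript length, described below, Pde6a was -0.0005, Pde6g 0.02 and Pde6b -0.17 from the median.

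Both channel genes lay above their control levels on the FPKM scale, Cnga1 by so little that its sign depended on the scaling. Cnga1 (ENSMUSG00000067220, chromosome 5, 72603696 to 72644275, minus strand), which forms most of the pore, had 6993 reads in the control and 9612 in OIR, or 228 and 242 FPKM, a ratio of 1.06 (1.03 to 1.10) and a difference of 0.09. Cngb1 (ENSMUSG00000031789, chromosome 8, 95239045 to 95306585, minus strand), the modulatory beta subunit, had 7935 and 12631 reads, or 201 and 248 FPKM. Its ratio was 1.23 (1.20 to 1.27) and its difference 0.30, the highest of the 9. Prph2 (ENSMUSG00000023978, chromosome 17, 46910459 to 46924933, plus strand), the disc rim gene, had 44905 and 59363 reads, or 1409 and 1439 FPKM, a ratio of 1.02 (1.01 to 1.03) and a difference of 0.03. All 9 genes are protein-coding in GENCODE M21. The spans of Gnb1, Pde6a and Cnga1 contain a pseudogene each, which held at most 135 reads in a library.

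**Figure D2:**
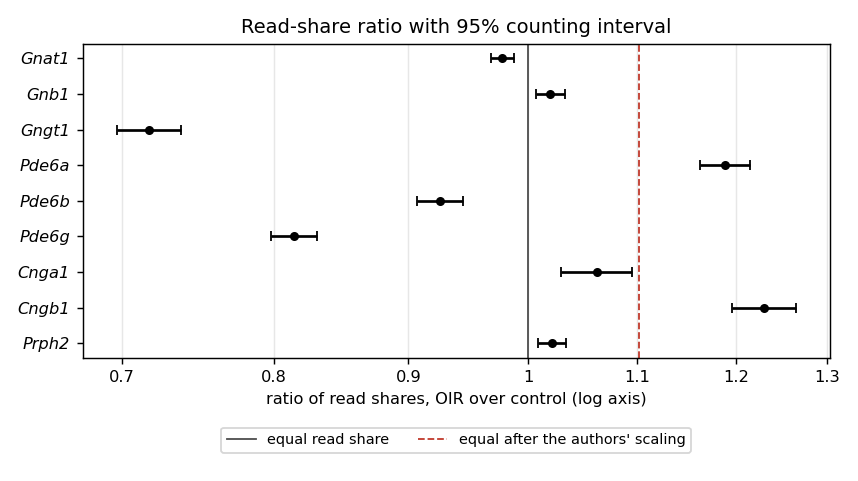
Read-share ratio of each gene, OIR over control, on a log axis, with its exact 95% counting interval from 1 library per group. The solid line marks equal read shares and the dashed line, at 1.10, the ratio at which the authors' scaled counts are equal. The interval of each gene lies off the solid line, and Pde6a and Cngb1 alone lie above the dashed line.

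None of the 9 genes was at least 2-fold higher or lower in OIR, a size reached by 3.07% and 0.718% of tested genes. On this scale none reached 1.5-fold, against 9.11% of tested genes higher and 2.58% lower, but Gngt1 did with the authors' scaling factors (a difference of -0.62), centred in 20 bins of the length behind the FPKM (-0.60) and centred on all tested genes (-0.59). At this depth counting error is small: the interval of the read-share ratio lay above 1 for 5 members and below 1 for 4, against 36.7% and 14.7% of tested genes. An interval off 1 speaks of counting error in these libraries alone. The median difference of the 9 was 0.03, against 0.11 over all tested genes, and 6 of the 9 lay within the interquartile range of all tested genes (-0.09 to 0.31). Of the other 3, Gngt1, Pde6g and Pde6b lay below it.

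How the libraries are put on 1 scale moved all members together. The authors' factors shift each log2 read-share ratio by -0.14, and with them 7 of the 9 differences were below 0 in place of 4. Under 9 other scalings, pseudocounts and centrings, Gngt1, Pde6g and Pde6b were below 0, and Pde6a and Cngb1 above 0. Gnat1, Gnb1, Cnga1 and Prph2 took both signs, between -0.17 and 0.18. Set against the abundant genes of like transcript length described below, Pde6g was 0.02 above the median and Pde6a was -0.0005 from it. When lens, muscle, red cell, ribosomal RNA and mitochondrial reads, 26.2% of the control library and 20.1% of OIR, were left out of the totals, the read-share ratios were 0.661 for Gngt1, 0.751 for Pde6g and 0.854 for Pde6b. On that scale they were 0.902 for Gnat1, 0.941 for Gnb1, 0.943 for Prph2 and 0.980 for Cnga1, and above 1 only for Pde6a and Cngb1, at 1.10 and 1.14.

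Ratios between partner subunits do not depend on library scaling, since both genes share the library. They do carry the gradient with transcript length described below, where partners differ in length. The Gnat1 to Gnb1 read ratio in OIR was 0.959 of that in the control (0.943 to 0.974). The ratio of Gnat1 to Gngt1 was 1.36 times that in the control (1.32 to 1.41) and that of Gnb1 to Gngt1 1.42 times (1.38 to 1.47). The RNA of transducin gamma thus stood lower in OIR relative to that of both partners, while the RNAs of alpha and beta had nearly the same proportion. Within PDE6, the ratio of Pde6a to Pde6b was 1.28 times that in the control (1.25 to 1.32), that of Pde6g to Pde6a 0.685 times (0.665 to 0.705) and that of Pde6g to Pde6b 0.880 times (0.855 to 0.905). In the channel, the ratio of Cnga1 to Cngb1 was 0.863 times that in the control (0.828 to 0.900). Yet Pde6g, Pde6a, Cnga1 and Cngb1 differed by 0.02, -0.0005, 0.03 and 0.05 from the medians of abundant genes of like transcript length. Shifts in these proportions beyond that gradient were not tested.

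The absolute proportions of partners depended on the length by which reads were divided. For 7 of the 9 genes the length behind the deposited FPKM equalled, within 1 base, the mean length of all transcripts annotated for the gene in GENCODE M21, short and intron-retaining models included. For Gngt1 that mean is 2080 bases, from a coding transcript of 1183 bases and an intron-retaining one of 2976, and for Gnat1 it is 1169 bases over 7 transcripts, while the main coding transcript has 2328. By deposited FPKM the level of Gnat1 was 12.4 times that of Gngt1 in the control and 16.9 times in OIR. Per kilobase of the main coding transcript (the longest APPRIS principal one) it was 3.53 and 4.81 times. The level of Cnga1 relative to Cngb1 was 1.13 and 0.976 by FPKM and 1.99 and 1.72 per kilobase of the main coding transcript. That of Pde6a relative to Pde6b was 0.660 and 0.848 by FPKM and 0.498 and 0.640 per kilobase of the main transcript. The level of Pde6g relative to Pde6b was 2.33 and 2.05 by FPKM and 3.47 and 3.05 on the other scale. The ratios between the libraries are the same on either scale.

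The order of the 9 differences largely followed the length of the main coding transcript, a measure chosen after the data were seen. Pde6g and Gngt1 have the shortest main coding transcripts, of 900 and 1183 bases, and the lowest differences. Pde6a and Cngb1 have the longest, of 4588 and 6189 bases, and the highest. Gnat1, Prph2, Cnga1, Pde6b and Gnb1, of 2328 to 3143 bases, lay between. Spearman's rho of difference with this length was 0.80 across the 9 genes, which share the 2 libraries, and 0.35 with the length behind the FPKM.

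Other abundant genes showed the same gradient. Among the 834 genes other than the 9 that reached 100 FPKM in the control or in OIR, a limit set after the data were seen, the median difference was -0.32 in the quintile with the shortest main coding transcripts (345 to 1040 bases), then -0.18, -0.05 and 0.06, and 0.25 in the longest (3716 to 15474 bases). Against the quintile of its own length, Pde6g was 0.02 above the median, Cngb1 0.05 above it and Pde6a at it, with a gap of -0.0005. Gnat1, Gnb1, Cnga1 and Prph2 lay within 0.03 of theirs. Gngt1 was 0.30 below the median of its quintile, where 6.59% of the genes were lower still, and was the only member outside the interquartile range of its quintile. Pde6b was 0.17 below its median, with 25.7% of genes lower. Centred within 20 length bins of all tested genes by main coding transcript, Gngt1 stood at -0.40, Pde6b at -0.22, Pde6g at -0.10, Pde6a at 0.09 and Cngb1 at 0.08. The quintile with the shortest transcripts includes lens crystallin, mitochondrial and ribosomal protein genes, which were not left out here. What makes short and long transcripts differ between these libraries was not tested.

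**Figure D3:**
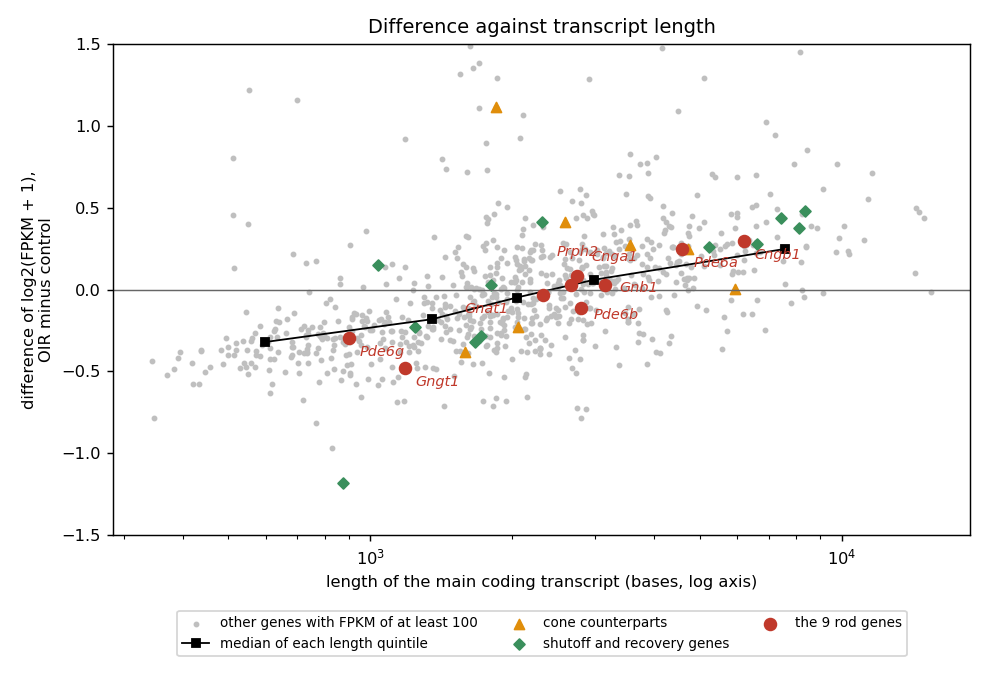
Difference of log2(FPKM + 1), OIR minus control, against the length of the main coding transcript (log axis) for the 9 rod genes, their cone counterparts, shutoff and recovery genes and the 834 genes other than the 9 with an FPKM of at least 100, some of them also drawn as cone counterparts or shutoff genes, of which 10 lie outside the axis; squares are medians of 5 length quintiles. The rod genes follow the rising medians, and Gngt1 lies farthest below them.

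The cone counterparts of the 9 genes, which build the same cascade in cones, gave a partly parallel picture at lower levels. Of these 7 genes, 5 lay above 0 and 2 below (4 and 3 with the authors' scaling factors), with a median difference of 0.25, that of Cngb3. Of all tested genes 64.9% lay above 0, and 48.7% with the authors' factors, the shares against which this and the counts below are to be read. A set of 8 cone markers, some of them among these genes, had a median difference of -0.15, with 3 above 0. Their summed level was 640 FPKM in the control and 537 in OIR. The cone gamma gene Gngt2 stood at 87.9 FPKM in the control and 67.3 in OIR, a read-share ratio of 0.765 (0.700 to 0.837), near that of the rod gamma gene. The cone alpha gene Gnat2 had 63.6 and 54.1 FPKM, a ratio of 0.850 (0.789 to 0.917). The catalytic gene Pde6c had 22.3 and 30.1 FPKM and a ratio of 1.35 (1.25 to 1.46), while the inhibitory Pde6h had 39.1 and 39.3 FPKM and a ratio of 1.00 (0.935 to 1.08). The span of Pde6h overlaps Arhgdib on the other strand, which had 76 reads in the control and 181 in OIR, beside 1365 and 1775 of Pde6h. The cone channel genes Cnga3 and Cngb3, with 126 and 131 control reads, had ratios of 1.26 (1.01 to 1.59) and 1.30 (1.04 to 1.62). Gnb3, the beta subunit of cone transducin, which ON bipolar cells also use, had 233 and 507 FPKM and a ratio of 2.17 (2.10 to 2.25). Gnb3 was the 1 gene of the 7 at least 2-fold higher, a size reached by 3.07% of all tested genes.

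The beta subunit genes therefore differed in size of change. Gnb1 had a ratio of 1.02 beside the 2.17 of Gnb3. Gnb2 had 96.7 FPKM in the control and 140 in OIR, a ratio of 1.45 (1.37 to 1.54). Its span overlaps Epo, which had 1 read in the control and 21 in OIR. Gnb4 had 6.38 and 8.03 FPKM, a ratio of 1.26 (1.07 to 1.48). Gnb5, the partner of Rgs9 in transducin shutoff, had 258 and 263 FPKM, a ratio of 1.02 (0.982 to 1.06). The 4 genes beside Gnb1 lay above 0 on the FPKM scale, as did 64.9% of all tested genes. With the authors' factors Gnb5 lay at -0.11, and 1 of the 4 was below 0 also when centred on all tested genes and as TPM without lens, muscle, red cell and mitochondrial genes.

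Other genes of the rod cascade were taken from lists chosen with earlier results of these data known. Of 12 shutoff and recovery genes, 8 lay above 0 and 4 below (7 and 5 with the authors' factors), beside 64.9% (48.7%) of all tested genes above 0, with a median difference of 0.20. The lowest were the guanylate cyclase activators Guca1a, with 190 FPKM in the control and 83.1 in OIR and a ratio of 0.438 (0.410 to 0.467), and Guca1b, with 399 and 319 FPKM and a ratio of 0.802 (0.780 to 0.824). The highest were the guanylate cyclase Gucy2e, at 64.6 and 90.6 FPKM and 1.40 of its control read share (1.35 to 1.45), and the pigment kinase Grk1, at 107 and 145 FPKM and 1.36 of its control share (1.33 to 1.39). Guca1a alone was at least 2-fold lower, as were 0.718% of all tested genes. The main transcript of Guca1a, of 873 bases, is close to that of Pde6g in length, and its difference, -1.18, was lower than the -0.30 of Pde6g.

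Of 16 genes of outer segment structure and transport, 12 lay above 0 and 4 below, also with the authors' factors, beside 64.9% and 48.7% of all tested genes above 0, with a median of 0.29. The lowest were Pde6d and Unc119, both carriers of lipid-tailed proteins to the outer segment, with ratios of 0.752 (0.699 to 0.809) and 0.882 (0.862 to 0.902). The highest were Impg2, a proteoglycan of the matrix around photoreceptors, with 62.3 FPKM in the control and 128 in OIR and a ratio of 2.05 (1.97 to 2.14), and the metal transporter Cnnm4, with a ratio of 1.70 (1.55 to 1.86). Impg2 alone was at least 2-fold higher, as were 3.07% of all tested genes. All 6 rod transcription factor genes lay above 0, beside 64.9% of all tested genes, with a median of 0.22. With the authors' factors Nrl lay at -0.12, and 1 of the 6 was below 0 also when centred on all tested genes and as TPM without lens, muscle, red cell and mitochondrial genes. Nrl, which directs rod fate, had 460 and 465 FPKM and a ratio of 1.01 (0.990 to 1.03), and Nr2e3, which acts with it, a ratio of 1.14 (1.10 to 1.17). Crx, the homeodomain factor of both photoreceptor types, had a ratio of 1.17 (1.15 to 1.20) and Samd7, a photoreceptor repressor, 1.64 (1.54 to 1.74).

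**Figure D4:**
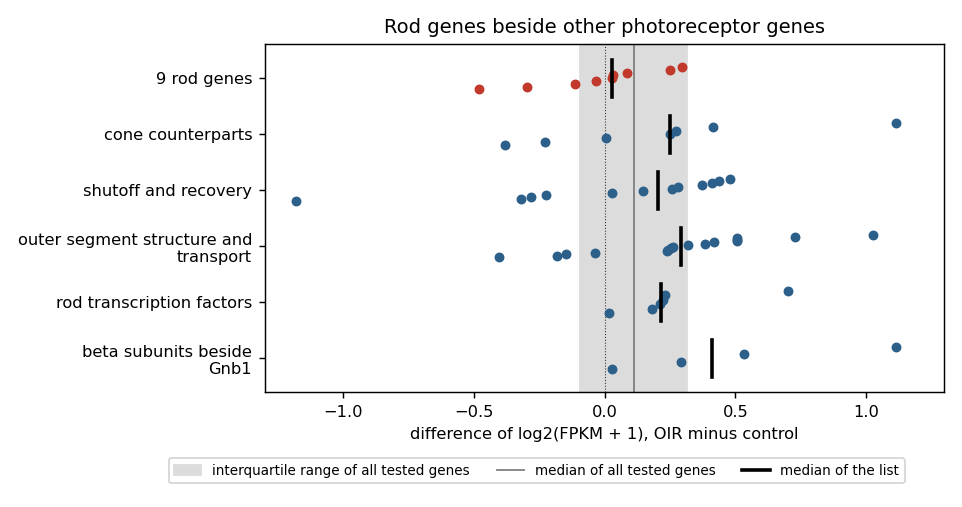
Difference of log2(FPKM + 1), OIR minus control, for each gene of 6 lists, 1 library per group; black bars are list medians, the grey band is the interquartile range of all tested genes and the grey line their median of 0.11. The 9 rod genes have a median of 0.03, the lowest of the 6 lists, and spread from -0.48 to 0.30.

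Among the tested genes of these lists, those nearest to the members in their levels in the 2 libraries were Guca1b, Crx and Abca4, the retinoid transporter of the disc rim. Their distances from the members' median levels were 0.20, 0.25 and 0.39 on the log2(FPKM + 1) scale, over 2 libraries. With so few libraries, this likeness is mostly one of level.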

How the data were processed

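RNA from 1 control and 1 OIR eyeball sample was sequenced after preparation from 3 µg of RNA, per the labels' protocols. The submitters' processing notes name the build mm10 and the tools TopHat2 2.0.12, Bowtie2 2.2.3 and HTSeq 0.6.1. Their settings, any use of strand and the annotation release were not given in the sources used here. Per the file headers, the deposited table holds read counts and FPKM values for each library, counts the authors scaled by 1 factor per library (a signal used only for those factors), and the authors' log2 fold change and p-values. After 5 lines of broken annotation text were dropped, 47644 genes remained.

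Differences of log2(FPKM + 1) and read-share ratios were computed with Python 3.11.15, pandas 2.3.3, NumPy 2.4.6 and SciPy 1.17.1, with exact conditional intervals (Clopper-Pearson, and the conditional odds ratio for partner genes) checked on simulated Poisson counts. Transcript lengths came from GENCODE M21, and Prcd was matched by gene identifier. Members and lists were chosen with earlier results of these data known. All members, cone counterparts and beta subunits are named, and of each other list the 2 highest and 2 lowest differences. Alternatives were pseudocounts, filters, centrings, thresholds and library scalings.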

Additional observations from a re-analysis of the deposited data

How the results depend on the processing

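No paired analysis was possible because each group is 1 library. The median difference of the 9 genes, 0.03, moved by more than its counting interval to -0.0839 when centred on all tested genes, -0.112 with the authors' scaling factors, 0.125 as TPM, -0.0406 as TPM without lens, muscle, red cell and mitochondrial genes, -0.0787 when centred in 20 length bins and -0.0257 as a mean; centring in bins of the main coding transcript's length, chosen after seeing the data, gave -0.0796. Pseudocounts, filters, CPM and summing of repeated symbols left it within that interval, and the count of 0 members at least 2-fold apart held under each scaling, pseudocount and centring. On the FPKM scale the count was also 0 at 1.5-fold and 4-fold. At 1.5-fold combined with each other scale, a check added after seeing the data, it was 1, Gngt1, with the authors' scaling factors, centred on all tested genes and centred in 20 length bins, and 0 with the other 5. The median of all tested genes itself ran from -0.01 with the authors' factors to 0.20 as TPM. The medians of the other lists stayed above 0 under each alternative; the lowest were 0.01 for cone counterparts with an FPKM filter of 5, which leaves out Cnga3 and Cngb3, and, centred in 20 length bins, 0.04 for shutoff and recovery genes and 0.07 for rod transcription factors. With the deposited gene length, which equals the longest annotated transcript for 8 of the 9 genes, Gnat1 was 8.78 times Gngt1 in the control and Cnga1 1.99 times Cngb1. Depth does not limit the members, each with at least 6993 reads; the absence of replicates does.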

Other observations

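The authors' deposited table marks none of the 9 genes as changed, but its adjusted p is under 0.05 for 4 of them, Gngt1 (6.66e-06), Pde6g (0.00022), Pde6a (0.0127) and Cngb1 (0.0355). These compare 1 library with 1 library and carry no spread between animals. Of the 47644 genes of the authors' deposited table, 368 have an adjusted p under 0.05, and 102 of these are marked. The smallest log2 fold change among the marked genes is 1.01 in size. All 9 members are among the first 334 genes by control FPKM, and the share under 0.05 among equally abundant genes was not computed. The 2 kinds of column in that table are not centred alike. Prph2 and Pde6a have log2 fold changes of nearly equal size, -0.11 and 0.11, in the authors' deposited table, with p of 0.426 and 0.00016. Over the 551 genes with a p above 0.9 and at least 1000 reads, the median fold change in the authors' deposited table is -0.14 on the log2 scale, while their median log2 read-share ratio is 0.00.

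Among genes with at least 100 reads in the 2 libraries together, the length behind the FPKM equalled the mean annotated transcript length of GENCODE M21 within 1 base for 67.3% of 13540. Which annotation release the authors used is unstated in the sources used here.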
